A study of Arabidopsis thaliana with 18 samples.

Results

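Salicylic acid (SA) was compared with its carrier in 6 samples of the Arabidopsis thaliana accession Cvi-1, which were chosen from 18 samples by the serial numbers in their titles. The 3 SA samples, serials 34, 35 and 36, had received SA at 0.30 mM, dissolved with 0.02% silwet, an organosilicone surfactant that helps a spray spread over leaves. The 3 silwet samples, serials 25, 26 and 27, had received 0.02% silwet alone, so both groups carried the surfactant. Serials 28 to 33 were the other SA samples and serials 19 to 24 the other silwet samples of the series. No mutant or transgene was named, and the labels state neither the tissue, the age of the plants and the time of harvest nor what separates the serial blocks. The title of the third SA sample carries a letter after its identifier that no label explains.

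SA is a plant hormone that rises when biotrophic pathogens are recognised. It is perceived by NPR proteins, which work with TGA transcription factors to switch on defence genes, and it is inactivated by glycosylation and methylation. SA also accumulates in ageing leaves, where it favours senescence, the programme that dismantles chloroplasts and exports sugar and nitrogen.

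RNA of each sample was hybridised to 1 Affymetrix ATH1 array, whose probe sets each report a transcript level as a MAS5 signal in arbitrary units. The number of arrays limits the precision. Median signal ranged from 31.7 to 37.4 in the SA arrays and from 35.2 to 37.5 in the silwet arrays, and SA replicate 1 had the lowest median of all 18 arrays. Of 22746 probe sets, 13648 had a mean log2 signal over the 18 arrays of 4.31 or more and were tested. Both leaf markers were abundant, RCA at 1760 to 2792 in SA arrays and 2476 to 2994 in silwet arrays and LHCB4.1 at 2430 to 2952 in SA arrays and 2904 to 3173 in silwet arrays. Of the root markers, EXPA7 and EXPA18 were at 16.4 or less in all 18 arrays, while PYK10 was at 205 to 278 in SA arrays and 214 to 260 in silwet arrays.

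No probe set passed the test for a difference between SA and silwet. In limma, with Benjamini-Hochberg adjustment over 13648 probe sets, 0 (0.0%) had an adjusted p under 0.05 and the smallest adjusted p was 0.9998, while 260 (1.91%) had an unadjusted p under 0.05. With the replicate number as a block, 0 (0.0%) were called and the smallest adjusted p was 0.356, while 1427 (10.5%) had an unadjusted p under 0.05, of which 479 (3.51%) were higher and 948 (6.95%) lower in SA. Blocked fits of only 2 pairs, tried after the data were seen, called 4 without replicate 1, 227 without replicate 2 and 17 without replicate 3. In the fits of all 6 arrays no gene below is called higher or lower, and what follows gives the signals themselves. Groups that did not overlap were counted as a description. All 3 SA signals lay above all 3 silwet signals for 472 probe sets (3.46%), and all 3 lay below for 610 (4.47%). Which direction was more frequent depended on scaling, since quantile normalization gave 563 higher and 497 lower. Likewise 2008 (14.7%) were higher and 2752 (20.2%) lower in all 3 pairs, where median centring gave 2429 higher and 2337 lower. Whether the samples were grown as separate plants is not stated, so each p-value reflects the spread among these 6 arrays, some of which may be technical.

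The clearest difference within pairs was that of SAG29 (AT5G13170, SWEET15), a sugar exporter of the plasma membrane that is strongly expressed in senescing leaves. Its signal was 140, 486 and 80.6 in SA replicates 1, 2 and 3, against 29.9, 255 and 9.66 in silwet replicates 1, 2 and 3. Replicate 2 was high under both treatments, so the groups overlapped, but each SA array was above the silwet array of its own number. The ratio of SA to silwet was 4.70, 1.91 and 8.35 in the 3 pairs. The largest ratio rests on the 9.66 of silwet replicate 3, which is under 16, where MAS5 values are least precise. The mean log2 difference was 2.08 (SE 1.11, limma unadjusted p = 0.0979, adjusted p = 0.9998, n = 3 each). With the replicate block the same difference had an SE of 0.319 and a limma adjusted p of 0.356, and its unadjusted p of 8.87e-05 was the smallest among tested probe sets with a single gene. WRKY6, the only other tested gene listed for senescence, had pair differences of both signs. It measured 76.2, 68.6 and 69.6 in SA, against 68.3, 75.7 and 47.3 in silwet (log2 difference 0.19).

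SWEET2 (AT3G14770), a sugar transporter of the same family as SAG29 that sits in the vacuole membrane, was also higher in every pair. It measured 134, 235 and 86.7 in SA, against 63.8, 171 and 57.3 in silwet, with replicate 2 again the highest under both treatments. The log2 difference was 0.71 (SE 0.48, limma unadjusted p = 0.177, and with the replicate block SE 0.164 and unadjusted p = 0.00175). The other tested SWEET genes differed less. SWEET11, which loads sucrose for the phloem, had 634, 889 and 873 in SA and 654, 692 and 793 in silwet. SWEET17, a fructose transporter of the vacuole, had 341.4, 323 and 126 in SA and 330, 328 and 280 in silwet, and its pair differences had both signs. SWEET1 and SWEET4 were higher in SA in every pair by 0.05 to 0.58 and 0.14 to 0.48 on the log2 scale. SWEET13 was lower in SA in every pair, by -0.14, -0.0075 and -0.09. SWEET16 had pair differences of both signs, at 0.23, -0.24 and 0.16.

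A further 3 genes with small p-values in the blocked comparison were, like SAG29, lowest in replicate 3 among the SA arrays. AT5G64230 measured 44.5, 51.2 and 16.6 in SA and 16.4, 19.3 and 3.44 in silwet (log2 difference 1.71). Its 3.44 in silwet replicate 3 is under 16 as well, so the size of this difference is imprecise. AT1G05340, a small cysteine-rich membrane protein, measured 221, 222 and 89.0 in SA and 64.9, 151 and 26.5 in silwet (log2 difference 1.36). AT1G09500, an enzyme like cinnamyl alcohol dehydrogenase, measured 97.0, 193 and 62.6 in SA and 20.7, 106 and 27.8 in silwet (log2 difference 1.42). Each was higher in SA in all 3 pairs, and their unadjusted p in the blocked limma fit ran between 0.000149 and 0.000204, with an adjusted p of 0.356. AT2G25450, a dioxygenase of glucosinolate side chain modification, measured 48.9, 150 and 60.4 in SA, against 40.2, 52.6 and 28.3 in silwet (log2 difference 0.96).

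Among genes whose groups did not overlap, AT1G48330 had the largest difference of those with a mean of at least 50. It measured 119.8, 73.5 and 114.6 in SA (mean 102.6 ± 25.4, SD, n = 3), against 40.9, 56.2 and 30.6 in silwet (mean 42.5 ± 12.8, SD, n = 3). Its log2 difference was 1.28 (SE 0.287, limma adjusted p = 0.9998). AT1G77540, a small acetyltransferase, measured 245, 228 and 185 in SA and 156, 122 and 66.5 in silwet, a log2 difference of 1.01. AT5G04830, of the nuclear transport factor 2-like family, was the most abundant of these with 576, 504 and 542 in SA and 393, 369 and 275 in silwet. AT3G08890, of a family of unknown function, was the most even, at 85.1, 96.8 and 96.4 in SA and 56.5, 53.9 and 57.5 in silwet. The 12 such genes with the largest differences, which also included AT2G20870, AT5G40690, AT2G07707, AT1G12400, AT3G04560, AT5G08240, AT3G18510 and AT5G56100, were higher by 0.58 to 1.28 on the log2 scale, and by 0.30 to 1.15 without SA replicate 1. The probe set of AT2G07707, a gene of the mitochondrial ATP synthase, can match several transcripts.

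The 12 with the largest differences in the other direction were lower in SA by 0.72 to 1.04 on the log2 scale, as coded -1.04 to -0.72 for SA minus silwet. AT1G60200, a splicing factor of the RBM25 type, measured 17.4, 23.0 and 45.5 in SA, against 48.8, 48.9 and 66.7 in silwet. AT1G14910, a clathrin assembly protein, measured 27.9, 40.9 and 41.0 in SA, against 77.3, 87.2 and 53.9 in silwet. AN, which is ANGUSTIFOLIA, a regulator of leaf cell shape, measured 20.9, 54.2 and 57.0 in SA, against 58.2, 94.8 and 78.0 in silwet. The other 9 were AT2G47410, AT5G42220, AT3G51120, AT4G01290, AT3G14120 (the nucleoporin NUP107), AT1G76810 (of the translation factor eIF5B family), AT1G75200, AT3G51620 and AT3G23660 (of the SEC23 family of vesicle coat proteins). Pair 1 differed by -1.65 to -0.79 in these genes, pair 2 by -1.09 to -0.07 and pair 3 by -0.97 to -0.12. Without SA replicate 1 the 12 differences were -0.80 to -0.34. RBL, a component of a histone methyltransferase complex, had groups that overlapped but was lower in every pair, at 30.2, 40.5 and 59.3 in SA and 50.4, 81.7 and 97.1 in silwet.

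**Figure D1:**
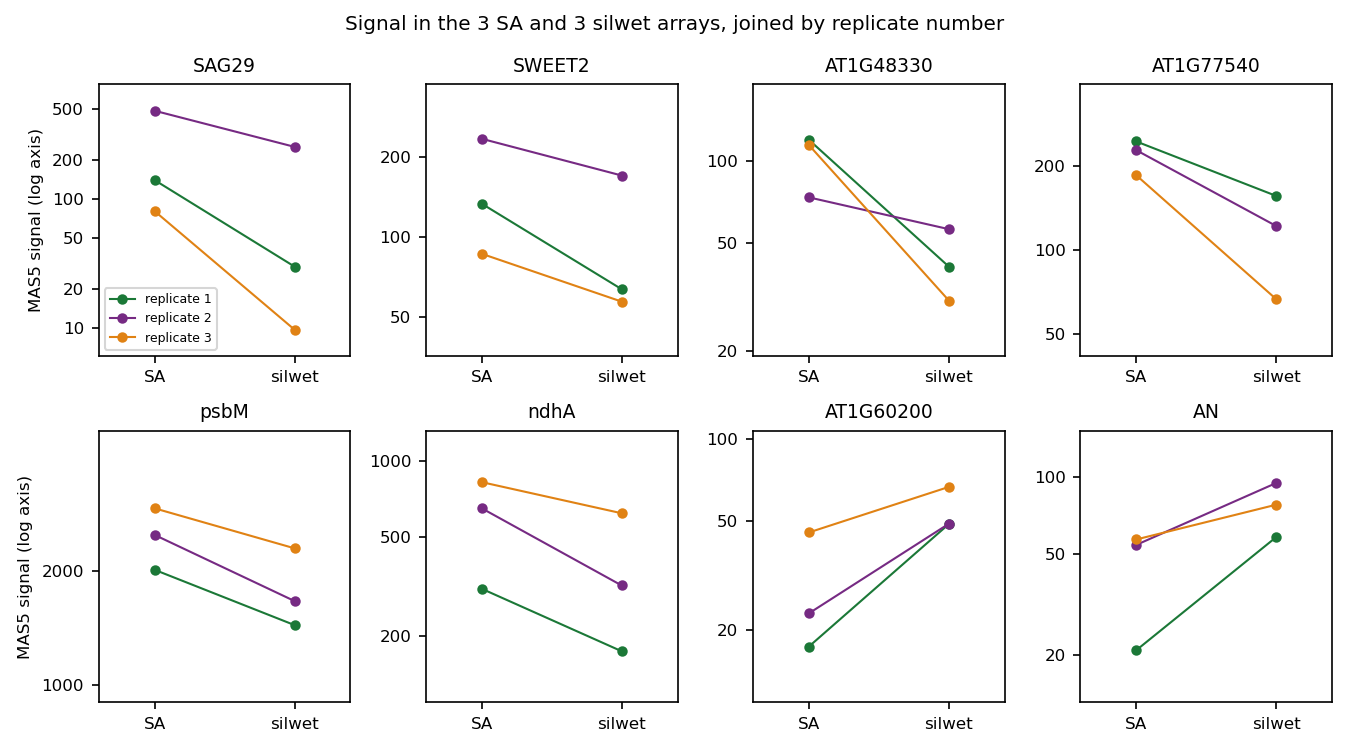
MAS5 signal on a log axis for 8 genes, with SA arrays on the left and silwet arrays on the right of each panel and a line joining the arrays of one replicate number. Every line slopes one way within a panel, while for SAG29 the level of a replicate number differs more than the treatments do, with replicate 2 at 486 in SA and 255 in silwet.

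Transcripts of the chloroplast genome, which encodes subunits of the photosynthetic complexes and of the organelle's own ribosomes and polymerase, were mostly higher in SA. Of 65 tested probe sets, 27 (41.5%) were higher in all 3 pairs, against 14.7% of all tested probe sets, and 0 were lower in all 3 pairs, against 20.2% of all tested probe sets. None was called. The median log2 difference over the 65 was 0.31, against -0.02 over all tested probe sets, and single genes ranged from -0.21 to 1.29. In pair 1 the median was 0.46, in pair 2 it was 0.67 and in pair 3 it was 0.08, so the difference was small in the third pair. With the replicate block 33 of the 65 had an unadjusted limma p under 0.05, all 33 higher in SA, and none passed adjustment. Of all tested probe sets 3.51% were higher at that p. The 65 are not independent replicates, since 34 of them also differed together by replicate number. Leaving out single arrays moved the median over the 65 to between 0.12, without silwet replicate 1, and 0.70, without silwet replicate 3. It was 0.58 without SA replicate 1 and 0.19 without SA replicate 3.

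The summed signal of the 65 was 50140, 61210 and 72700 in SA replicates 1, 2 and 3, against 41290, 45660 and 70420 in silwet replicates 1, 2 and 3. By this sum, in which abundant transcripts weigh most, replicate 3 was the highest under both treatments and the SA array exceeded the silwet array in each pair. The median signal over the 65 was 498, 776 and 846 in SA and 356, 468 and 873 in silwet, so by the median SA was lower in pair 3. In such bulk samples fewer cells of a type and less RNA per cell cannot be told apart.

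Among subunits of the chloroplast NAD(P)H dehydrogenase, which carries electrons around photosystem I, 6 of 8 were higher in all pairs, against 14.7% of all tested probe sets. Their median difference was 0.74. The gene ndhA measured 310, 648 and 825 in SA, against 174, 319 and 620 in silwet (log2 difference 0.75, blocked SE 0.143, unadjusted p = 0.000425, adjusted p = 0.356). The gene ndhG measured 57.6, 212 and 426 in SA, against 53.4, 66.7 and 171 in silwet, and its first pair was nearly level.

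Photosystem I and II subunits had a median of 0.36, and 5 of 20 were higher in all pairs, against 14.7% of all tested probe sets. Among them psbM, a small photosystem II subunit, was abundant and had even pairs, at 2019, 2496 and 2934 in SA and 1443, 1670 and 2301 in silwet (log2 difference 0.47, blocked SE 0.0836, unadjusted p = 0.000262). Of 13 genes for the cytochrome b6f complex, ATP synthase and Rubisco, 6 were higher in all pairs, against the same 14.7%, with a median of 0.28. The cytochrome subunit gene petN measured 105, 166 and 156 in SA, against 70.3, 45.8 and 122 in silwet.

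Ribosomal protein genes of the chloroplast differed least of these classes, with a median of 0.20. Of these 4 of 14 were higher in all pairs, against 14.7% of all tested probe sets. The gene rps15 measured 41.6, 68.3 and 81.2 in SA, against 28.3, 41.0 and 45.8 in silwet. The 3 RNA polymerase subunits had a median of 0.31 and none was higher in all pairs. Of the remaining 7, 6 were higher in all pairs, against the same 14.7%. Among them was clpP, the proteolytic subunit of the chloroplast Clp protease, at 1192, 1452 and 1967 in SA and 688, 697 and 1623 in silwet. A further member, accD of fatty acid synthesis, measured 338, 776 and 797 in SA, against 134, 228 and 710 in silwet, and was chosen after its values were seen.

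Nuclear genes of photosynthesis had differences near 0 or of the other sign. PORB, a chlorophyll synthesis enzyme, measured 1025, 1883 and 2105 in SA, against 1557, 1923 and 2456 in silwet. RCA, the activase of Rubisco, measured 1760, 2512 and 2792 in SA and 2476, 2517 and 2994 in silwet. LHCB4.1, an antenna protein, measured 2430, 2904 and 2952 in SA and 2992, 2904 and 3173 in silwet. All 3 were lower in SA in each pair, with a median of -0.20, though RCA and LHCB4.1 differed by only -0.0028 and -0.00021 in pair 2, and without SA replicate 1 the median was -0.0021. Over 7 nuclear photosystem and antenna genes the median was -0.02, and 0.03 under median centring. In all pairs 1 of the 7 was higher and 1 lower, where 14.7% and 20.2% of all tested probe sets were.

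The tested SA marker genes had lower mean log2 signals in SA than in silwet, by less than the spread between arrays. UGT76B1 (AT3G11340), which attaches glucose to SA, measured 12.3, 16.4 and 10.3 in SA, against 21.6, 18.6 and 10.6 in silwet (log2 difference -0.35, 95% interval -1.21 to 0.52). GRX480 (AT1G28480), a glutaredoxin that binds TGA factors, measured 112, 118 and 91.4 in SA, against 159, 126 and 96.0 in silwet (log2 difference -0.22, 95% interval -0.74 to 0.30). The transcription factor WRKY53 (AT4G23810), which acts in leaf ageing, measured 102, 55.6 and 122 in SA, against 177, 101 and 83.6 in silwet (log2 difference -0.37, 95% interval -1.20 to 0.47). Each pair of group ranges overlapped and none was called. Of 21 SA marker genes 4 had a tested probe set. Of these 0 were higher and 2 lower in all 3 pairs, where 14.7% and 20.2% of all tested probe sets were. The median over the 4 was -0.29. It ran between -0.50, without silwet replicate 3, and -0.10, without silwet replicate 1. The intervals of GRX480 and WRKY53 lay below a mean rise of 1.5-fold. That of UGT76B1 did too, but its 12.3 and 10.3 in SA and 10.6 in silwet are under 16. MAS5 values are least precise there, so no rise is excluded for UGT76B1.

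BSMT1 (AT3G11480), which methylates SA to volatile methyl salicylate, was below the level required for testing. It measured 15.5, 105.4 and 12.4 in SA, against 0.997, 34.9 and 0.900 in silwet. Every pair was higher in SA, replicate 2 stood above the others under both treatments as for SAG29, and 105.4 was its highest signal among the 18 arrays. Most of these signals are under 16, where MAS5 values are least precise, so no size is given for the difference. UGT74F1, which glucosylates SA, was at 6.33 or less in every one of the 18 arrays.

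Of 18 genes listed for pattern and effector triggered immunity only 2 had a tested probe set, so this group was hardly covered. Both differed by less than the spread between arrays. BIK1, a receptor-associated kinase, measured 101, 96.7 and 92.0 in SA and 101, 119 and 90.7 in silwet. EFR, the receptor for bacterial elongation factor Tu, measured 32.8, 41.8 and 43.7 in SA and 34.7, 40.3 and 49.0 in silwet. THI2.1, a jasmonate-responsive thionin, was at 97.6 in SA replicate 1 and at 30.6 and 34.8 in the other two SA arrays, against 25.0, 38.3 and 31.6 in silwet, so 1 array carried its difference.

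Autophagy genes, whose products enclose cell contents for breakdown in the vacuole, had a median difference of 0.24 over 10 genes. Of these 4 were higher in all 3 pairs and 0 lower, against 14.7% higher and 20.2% lower among all tested probe sets. ATG8H, a ubiquitin-like protein of the autophagosome membrane, measured 58.7, 52.8 and 34.6 in SA, against 25.0, 41.4 and 18.9 in silwet (log2 difference 0.82, SE 0.34, limma adjusted p = 0.9998). The median over the 10 was 0.54, -0.09 and 0.32 in pairs 1, 2 and 3, and without single arrays it ran between 0.03, without SA replicate 1, and 0.42, without SA replicate 2.

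Ubiquitin-conjugating enzymes had 5 of 10 genes higher and 0 lower in all pairs, where 14.7% and 20.2% of all tested probe sets were. The median over the 10 was 0.15. Its pair medians were 0.25, 0.03 and 0.17, and it was 0.02 without SA replicate 1 and 0.09 without silwet replicate 3. UBC29 was higher without overlap, at 287, 271 and 280 in SA and 245, 215 and 221 in silwet. Glutathione transferases had a median of 0.12 over 9 genes (0.15, 0.16 and 0.12 in pairs 1, 2 and 3). It ran between 0.09, without silwet replicate 2, and 0.26, without silwet replicate 1, and was 0.21 without SA replicate 2. In all pairs 4 of the 9 were higher and 0 lower, against the same 14.7% and 20.2%. GSTU16 measured 77.0, 42.7 and 41.5 in SA, against 52.2, 31.9 and 33.6 in silwet.

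UDP-glycosyltransferases, which attach sugars to hormones and other small molecules, had a median of -0.12 over 24 genes. In all pairs 1 (4.17%) was higher and 6 (25.0%) lower. Of all tested probe sets 14.7% were higher and 20.2% lower in all pairs, so the share of lower genes was near that of all. Of 5 abscisic acid and cold genes, 3 were higher in all pairs, where 14.7% of all tested probe sets were. The median over the 5 was 0.19. It was -0.04 without SA replicate 1, -0.05 without silwet replicate 3 and 0.52 without SA replicate 3. COR15B, a cold-induced chloroplast protein, measured 1954, 1443 and 1377 in SA, against 1319, 1567 and 1287 in silwet. GI, a clock gene, measured 127, 411 and 419 in SA, against 310, 455 and 550 in silwet (log2 difference -0.61, and -0.04 without SA replicate 1).

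**Figure D2:**
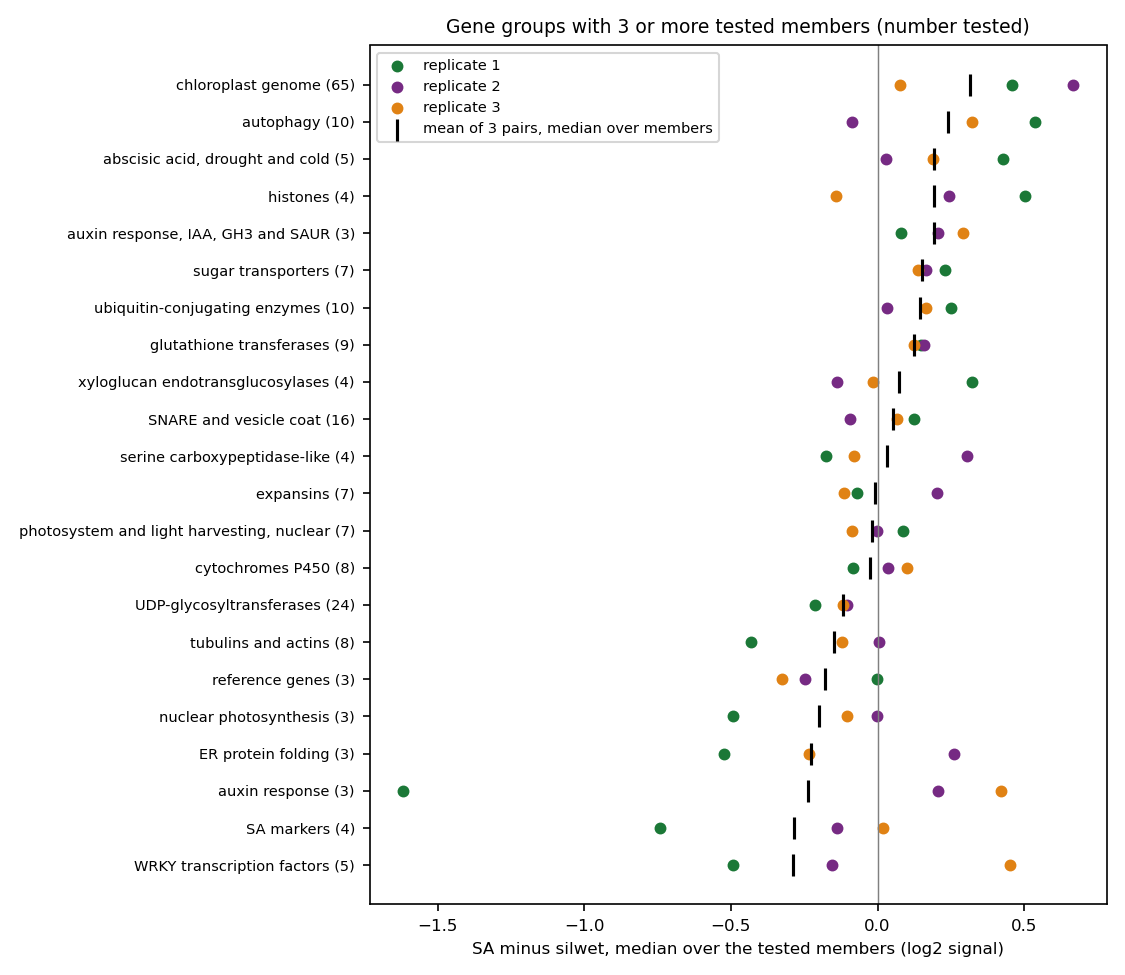
Median log2 difference, SA minus silwet, over the tested members of each gene group with 3 or more, with 1 point per replicate number and a black bar for the median of the mean difference. Chloroplast genome genes lie right of 0 in all 3 pairs, at 0.46, 0.67 and 0.08, while SA markers lie at -0.74, -0.14 and 0.02.

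The difference between SA and silwet went with gene length. Across 7333 probe sets with 1 gene and a known length, the log2 difference correlated with log2 gene length at r = -0.52, across genes, which are not independent replicates. Genes of 78 to 1584 bp had a median difference of 0.16 and those of 3541 to 26499 bp a median of -0.22. Among these shortest genes 8.64% of probe sets were higher without overlap and 0.408% lower, and among the longest 0.614% were higher and 9.35% lower. The 12 higher genes above were 477 to 2404 bp long and the 12 lower ones 3160 to 9165 bp long.

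The relation was strongest in pair 1, with r = -0.54, and was -0.18 in pair 2 and -0.26 in pair 3. It was 0.02 and 0.09 for SA minus silwet in serials 28 to 30 and 31 to 33. The deviation of SA replicate 1 from the mean of the 18 arrays had the strongest correlation with length of any array, at r = -0.44, and without that array the correlation of the SA difference was -0.22. The ubiquitin control's 3' to 5' signal ratio, a sign of RNA integrity, was 3.71, 2.55 and 2.96 in SA and 3.66, 3.06 and 2.93 in silwet. For the GAPDH control the ratio was 1.09, 0.90 and 1.07 in SA and 1.11, 1.16 and 0.99 in silwet. The actin control had 0.98, 0.81 and 0.69 in SA and 0.73, 0.58 and 0.96 in silwet. Chloroplast genes had a median length of 531 bp, autophagy genes 1794 bp, glutathione transferases 1353 bp and SA markers 1337 bp, against 2359 bp over all tested genes. Without the chloroplast genome the correlation was -0.52. The part of length in the differences of single genes and groups was not tested.

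**Figure D3:**
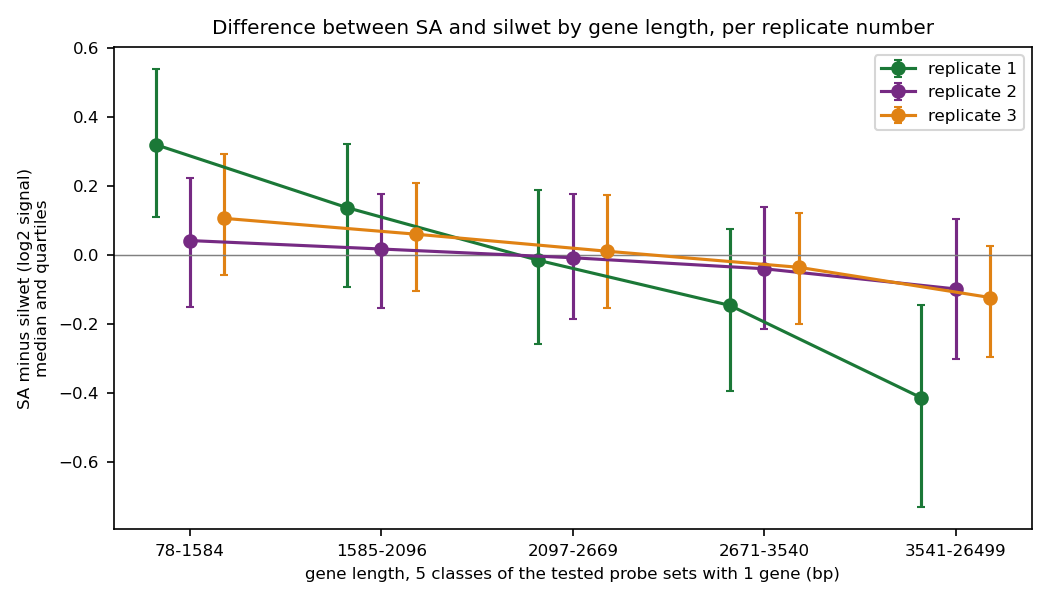
Median log2 difference, SA minus silwet, in 5 equal classes of the tested genes by length, with quartiles as bars and 1 line per replicate number. All 3 lines fall from short to long genes, in pair 1 from a median of 0.32 to -0.41.

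Replicate numbers separated the arrays more than SA did. Over all tested probe sets 15.0% of the sum of squares among the 6 arrays lay with treatment, 66.4% with replicate number and 18.6% with neither, while treatment had 20% and replicate number 40% of the degrees of freedom. Each array correlated best with the array of its own number under the other treatment, at 0.959, 0.978 and 0.980 for numbers 1, 2 and 3. Pair 1 had 125 probe sets over 2-fold higher and 487 over 2-fold lower in SA, pair 2 had 81 and 64, and pair 3 had 80 and 36. The differences of pairs 1 and 2 correlated at 0.12 across probe sets, those of pairs 1 and 3 at 0.33 and those of pairs 2 and 3 at 0.06.

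**Figure D4:**
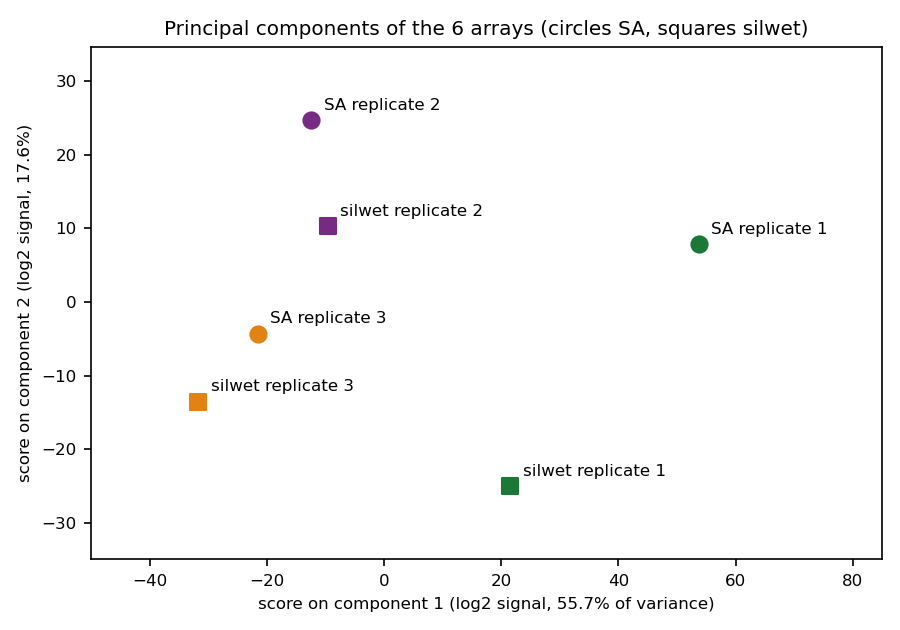
Scores of the 6 arrays on the first 2 principal components of log2 signal, with circles for SA, squares for silwet and a colour per replicate number. Component 1 (55.7% of the variance) sets replicate 1 apart, at 53.7 in SA and 21.6 in silwet, and on component 2 (17.6%) each SA array lies above the silwet array of its number.

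An F-test in limma for the replicate number, with treatment in the model, called 1681 probe sets (12.3%) at an adjusted p under 0.05. Replicate 1 held the highest or lowest mean in 93.7% of them, against 81.1% of all tested probe sets, and was the highest of the called ones in 643 (4.71%) and the lowest in 932 (6.83%). AT1G80130, a tetratricopeptide repeat protein, measured 791, 113 and 161 in SA and 777, 138 and 126 in silwet. DI21, a drought-induced gene, measured 306, 57.0 and 60.1 in SA and 215, 48.8 and 42.5 in silwet. Both were several-fold higher in replicate 1 under either treatment.

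AT5G19120, of the aspartyl protease family, was lowest in replicate 1, at 21.1, 75.7 and 193 in SA and 19.9, 54.9 and 125 in silwet. AT5G15780 was likewise low there, at 18.1, 97.6 and 114.0 in SA and 30.6, 121 and 156 in silwet, and so was AT2G20670, at 1.94, 33.7 and 71.4 in SA and 3.57, 23.9 and 67.5 in silwet. The chloroplast gene atpF, an ATP synthase subunit, was highest in replicate 3, at 256, 285 and 1045 in SA and 136, 198 and 1017 in silwet. Of the 65 chloroplast genome probe sets 34 were called for the replicate number, and all 34 were highest in replicate 3 and lowest in replicate 1, where 5.1% of all tested probe sets were called with replicate 3 highest. Of the 5 abscisic acid and cold genes 4 were called for the replicate number, each highest in replicate 1. Of all tested probe sets 12.3% were called, and 4.71% were called with replicate 1 highest.

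Other serial blocks held the same treatments and gave other differences. SAG29 was lower in SA in every pair of both, by -0.59, -1.78 and -2.12 for serials 28 to 30 minus 19 to 21 and by -1.25, -1.60 and -1.67 for serials 31 to 33 minus 22 to 24, on the log2 scale. Its difference of 2.08 in serials 34 to 36 exceeded that of serials 28 to 30 by 3.58 (SE 1.27, limma unadjusted p = 0.0125, adjusted p = 0.9954) and that of serials 31 to 33 by 3.58 (SE 1.27, unadjusted p = 0.0124, adjusted p = 1.0). Its signal in the 12 other arrays had a median of 44.5.

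Chloroplast genome genes had a median SA difference of 0.06 in serials 28 to 30, of -0.39 in serials 31 to 33 and of 0.31 in serials 34 to 36. In serials 31 to 33, 36 of the 65 were lower in all 3 pairs and 0 higher, where 10.3% of all tested probe sets were lower and 10.7% higher in all pairs. In serials 28 to 30, 16 were higher in all pairs, where 4.11% of all tested probe sets were, and 2 were lower, where 5.47% were. The gene ndhG had differences of 1.03, -0.92 and 1.03 in the 3 blocks, in order of serial.

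UGT76B1 differed by 4.98, -5.22 and 4.32 in the pairs of serials 28 to 30 minus 19 to 21. There silwet replicate 2 was at 1540 and SA replicate 2 at 41.2, so these arrays go against their labels for this gene. Pair 2 had the opposite sign for GRX480 too, at 2.59, -2.13 and 1.87, and for WRKY53, at 2.17, -1.60 and 1.14. The mean differences given for serials 28 to 30 include this pair, and the cause was not tested. In serials 34 to 36 the pairs of UGT76B1 differed by -0.82, -0.19 and -0.04. Over all tested probe sets the SA difference of serials 34 to 36 was not called different from that of serials 28 to 30 (0 called, 0.0%, 201 with an unadjusted limma p under 0.05) or from that of serials 31 to 33 (0 called, 0.0%, 145 with an unadjusted p under 0.05). Without replicate 2 the first of these gave 39 calls.

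**Figure D5:**
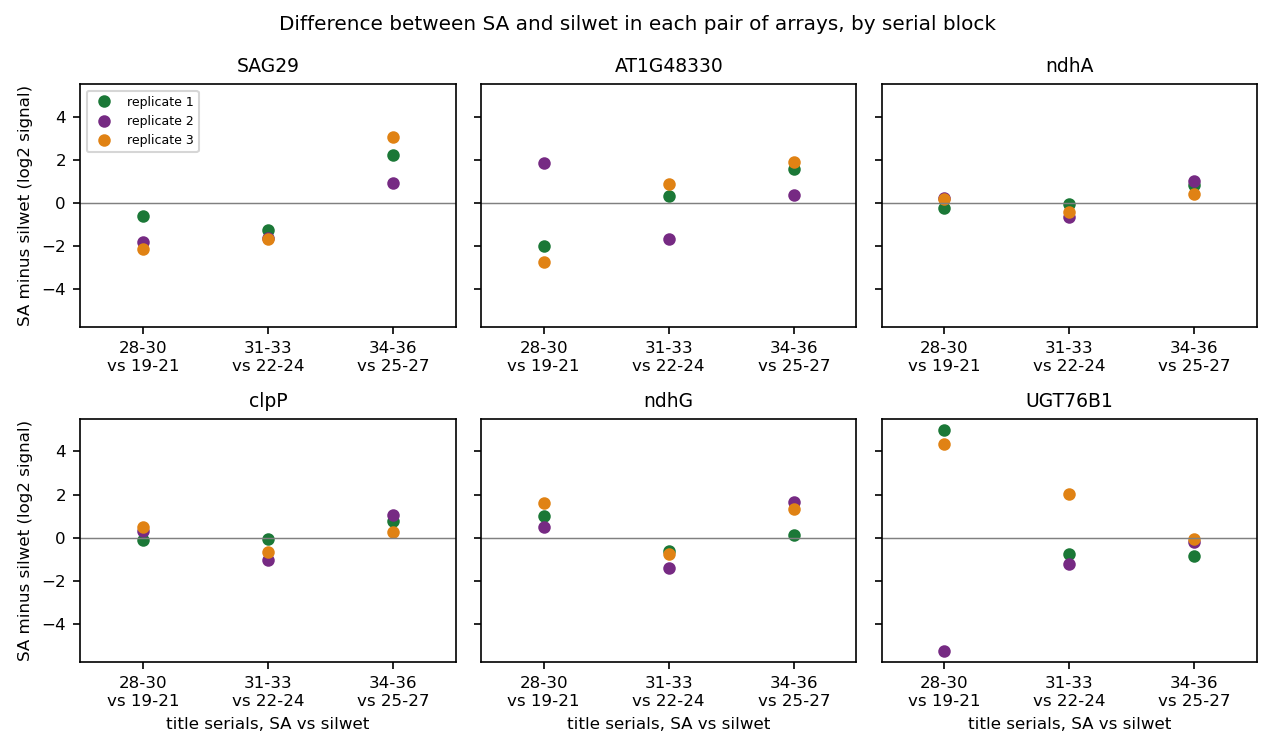
Log2 difference, SA minus silwet, in each pair of arrays for 6 genes, by serial block from the lowest serials on the left, with 1 point per replicate number. SAG29 lies below 0 in all pairs of the first 2 blocks and above 0 in all pairs of the last. UGT76B1 spans -5.22 to 4.98 in the first block and -0.82 to -0.04 in the last, where its signals are only 10.3 to 21.6.

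The 6 arrays could show only large differences. The median SE of a log2 difference was 0.228, or 0.164 with the replicate block, and the 95% interval lay within 2-fold for 82.3% of probe sets, or 95.1% with the block. In simulated data with these means and spreads, 200 of 13648 probe sets were changed, and 79.5% of 4-fold changes were called without the block and 88.0% with it, while 0% of 2-fold and 0% of 1.5-fold changes were called by either.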

How the data were processed

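The deposited values are linear MAS5 signals, an intensity summarised per probe set, and the submitters' processing notes name MAS5 without a version or settings. The 2% trimmed mean was 100.0 in every array, and no further scaling was applied to the authors' intensity values. MAS5 signal is least precise at low intensity, and scaling hides a change in total RNA. All columns belonged to a sample.

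After removal of 64 control probe sets, log2 was taken without a pseudocount. Probe sets at or above the 40th percentile of mean log2 signal over 18 arrays were tested. The 3 SA and 3 silwet arrays were fitted with limma 3.58.1 in R 4.3.3 (lmFit, then eBayes with an intensity trend) and no replicate block. Same-numbered SA and silwet arrays deviated together from their group means (r = 0.66, 0.32 and 0.64), so the numbers were taken to pair the samples. The pairing is least clear for number 2, since SA replicate 2 had r = 0.25 with silwet replicate 3. The replicate block is given beside results whose count of small p-values it moves. Differences between serial blocks were contrasts in an 18-array, 6-group model. Tables were made with Python 3.11.15 (pandas 2.3.3, numpy 2.4.6) and plots with matplotlib 3.10.9. The code was tested on simulated data.

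Symbols came from the platform annotation, in which 13513 probe sets had 1 gene, 503 several and 8730 none, with newer symbols from TAIR10.1, and 7342 tested probe sets had 1 gene. The 21 lists named 243 genes, of which 43 had their own probe set and 38 passed the filter, and 21 of 31 families had a tested member. PR1, ICS1 and NPR1 were not matched to a probe set of their own in this annotation and are not analysed here. Gene length is that of the annotated gene in TAIR10.1.

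The members, lists and families were chosen with earlier results of these data known. Named genes were the 12 largest differences per direction among called probe sets, filled from non-overlapping groups with a mean signal of at least 50 in the higher group, the 4 smallest p, up to 3 per list or family, UGT76B1, GRX480 and WRKY53, and the 6 smallest p for replicate number. Of these the text gives those that bear on its comparisons. The 12 smallest p with the replicate block, the 4 calls with the block but without replicate 1, the genes on lists but below the filter and accD and the SWEET genes were added after values were seen. The chloroplast family was matched by another locus prefix once the annotation had been read.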

Additional observations from a re-analysis of the deposited data

Results flagged for a closer look

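Of 121 named genes, 12 had pairs that all lay on one side of 0 in serials 34 to 36 and all on the other side in another serial block. Many of the 121 were named for differences in serials 34 to 36, so pairs on one side there were partly built in. Of all tested probe sets 14.7% were higher and 20.2% lower in all pairs there. In serials 31 to 33 these shares were 10.7% and 10.3%, and in serials 28 to 30 4.11% and 5.47%. The share of all tested probe sets with opposed pairs was not counted. By that comparison of signs the difference between blocks was not tested. SAG29 had a mean log2 difference, SA minus silwet, of 2.075 here, against -1.51 in serials 31 to 33 and -1.50 in serials 28 to 30.

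Besides SAG29, 4 genes opposed serials 28 to 30. AT1G60200 had -1.041 here against 0.11 there, WRKY20 -0.2879 against 0.09, UBC28 0.2106 against -0.10 and IAA29 0.1927 against -0.48. A further 7 opposed serials 31 to 33. Among chloroplast genome genes ndhG had 1.033 here against -0.92 there, ndhA 0.7543 against -0.38, clpP 0.7092 against -0.58, atpF 0.4907 against -1.001 and psbM 0.4717 against -0.19. DI21, a drought-induced nuclear gene, had 0.4112 against -0.41, and the autophagy gene APG8H had 0.3545 against -0.05. The limma contrasts between blocks, run over all tested probe sets, gave unadjusted p-values of 0.0124 and 0.0125 for SAG29 and 0.0277 for AT1G60200, and of 0.0521 to 0.512 for the other 10, and none passed adjustment. The serial blocks are separate arrays that share no control.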

How the results depend on the processing

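The count of 0 calls for SA against silwet was the same under median centring or quantile normalization, with array weights, without the intensity trend, with the filter dropped or raised to the 60th percentile, with a pseudocount of 16, with 12 or 18 arrays, a fixed or random replicate block, and without any 1 replicate number or array in the unblocked fit. With the replicate block and 1 pair left out, a fit of 2 pairs added after seeing the data, 4 to 227 probe sets were called, 4 without replicate 1, 227 without replicate 2 and 17 without replicate 3. The replicate block changed no other call. The contrast with serials 31 to 33 gave 1 call with array weights, and that with serials 28 to 30 gave 0 to 39 when replicates were left out. Replicate number gave 610 calls with no filter, 1015 with the stricter filter, 724 with no intensity trend and 450 to 3783 with 1 number left out, 450 without replicate 1. Without a filter 893 probe sets were higher without overlap and 3458 higher in every pair. With 1 replicate number left out, those counts were 1554 to 1791 and 3149 to 3855, those lower without overlap 1928 to 2143 and those lower in every pair 3820 to 4808, as fewer arrays have to agree. The correlation with gene length was -0.32 with array weights and between -0.22 and -0.55 without 1 array or number, -0.22 without SA replicate 1 and -0.30 without replicate 1, with or without the block. Quantile normalization moved the share of higher among non-overlapping probe sets to 53.1%, against 43.6%, and the median of all probe sets to 0.001, against -0.02.

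Reversals were seen in genes that differ by replicate number. With arrays left out, the log2 difference of SA minus silwet ran between -0.82 and 0.88 for AT1G80130, -1.26 and 1.45 for AT2G20670, -0.39 and 1.16 for DI21, -0.36 and 1.23 for AT5G19120, -1.22 and 0.34 for AT5G15780, -0.16 and 1.37 for atpF and -0.49 and 0.034 for PORB. It was -0.23 for AT1G80130 with array weights, and for AT2G20670 0.086 with a pseudocount of 16, with or without the replicate block, and 0.54 with array weights. With the block and 1 pair left out, it was -0.13 for AT1G80130 without replicate 3 and 0.29 for AT2G20670 without replicate 1. The cause was not tested. The 3 pairs of arrays, unnamed probe sets and low MAS5 signals limit what could be seen.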

Other observations

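Genes of several other groups differed little or in 1 array only. Histone H2B genes had a median log2 difference of 0.19 over 4 genes, with 0.50, 0.25 and -0.14 in pairs 1, 2 and 3 and 0.07 without SA replicate 1. HTB11 was higher without overlap, at 132, 106 and 96.8 in SA and 84.5, 92.4 and 92.8 in silwet. Vesicle traffic genes of the SNARE and coat families were divided. Of 16, 5 were higher and 5 lower in all pairs, where 14.7% and 20.2% of all tested probe sets were. Tubulins and actins had a median of -0.15 over 8 genes, with a median of -0.43 in pair 1 and of -0.05 without SA replicate 1. Expansins, which loosen cell walls, had a median of -0.01 over 7 and cytochromes P450 one of -0.03 over 8, and both turned sign under quantile normalization and median centring. IAA29, an auxin-induced repressor, was low in replicate 1 under both treatments, at 11.4, 60.5 and 63.7 in SA and 10.8, 52.4 and 52.1 in silwet. Of 3 genes in use as references, AT4G34270 was lower in SA without overlap, at 58.9, 51.7 and 49.6 in SA and 62.7, 61.3 and 76.5 in silwet, and PEX4 was at 199 in SA replicate 1, above its signal in the other arrays of both groups. FMA, a guard cell regulator, was at 49.5 to 57.8 in SA and 47.1 to 66.2 in silwet.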
